A study of Homo sapiens with 8 samples.

Results

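The genes described here are 10 host genes of small nucleolar RNAs (snoRNAs), SNHG1, SNHG3, SNHG5, SNHG6, SNHG7, SNHG8, SNHG12, SNHG15, SNHG29 and GAS5, among 58302 genes counted in RD cells. RD is an established human rhabdomyosarcoma cell line, a tumor of the skeletal muscle lineage. The study compared 4 libraries of RD cells carrying a scrambled short hairpin RNA (Control) with 4 libraries of RD cells in which a hairpin silenced PROX1 (shPROX1), a homeobox transcription factor, and its design text describes the libraries as biological replicates. All 8 libraries are total RNA from cells kept in the same serum-containing medium. The model is a single cell line, and the hairpin sequences and the time between silencing and harvest are not given in the sources used here. The genes were listed by symbol and matched to the Ensembl identifiers of the files, and all 10 were found and passed the filter on low counts that left 12392 genes. They were proposed with results of these same libraries known, so their own Control to shPROX1 differences are described here without a test. Levels are in CPM, counts relative to a library size scaled by TMM factors, which align the libraries on the bulk of their genes, and ± is the SD with n = 4 libraries unless an SE is named.

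Host genes of this kind are transcribed by RNA polymerase II, and snoRNAs are cut out of their introns after splicing. Box C/D snoRNAs guide methylation of the ribose and box H/ACA snoRNAs guide pseudouridylation of ribosomal and other RNAs, each inside a particle with its own core proteins. The spliced host RNA that remains often carries a pyrimidine tract at its very start, the 5′ terminal oligopyrimidine (TOP) feature shared with ribosomal protein mRNAs, and many such host RNAs are degraded during translation by nonsense-mediated decay (NMD).

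The start of each host is shown because TOP RNAs are defined by the letters at which transcription begins. RefSeq promoter entries of GRCh38.p14 matched 8 of the 10 hosts, while SNHG6 and SNHG15 were not matched. Each line below holds 40 bases before and 20 bases from the RefSeq start, 5′ to 3′ on the strand of the gene. Capitals mark TATAA between 40 and 16 bases before the start, and an unbroken run of at least 5 C or T. The run is counted from its first C, which lies within 10 bases of the start, and any T before that C is not counted.
SNHG1, chr11:62855866-62855925, minus strand: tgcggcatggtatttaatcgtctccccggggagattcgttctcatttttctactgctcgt
SNHG3, chr1:28505903-28505962, plus strand: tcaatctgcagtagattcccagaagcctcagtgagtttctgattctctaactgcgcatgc
SNHG5, chr6:85678714-85678773, minus strand: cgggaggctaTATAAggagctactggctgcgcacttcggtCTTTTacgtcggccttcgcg
SNHG7, chr9:136728165-136728224, minus strand: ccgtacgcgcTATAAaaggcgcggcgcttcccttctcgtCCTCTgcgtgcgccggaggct
SNHG8, chr4:118278722-118278781, plus strand: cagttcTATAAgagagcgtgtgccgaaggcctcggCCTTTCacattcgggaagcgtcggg
SNHG12, chr1:28581854-28581913, minus strand: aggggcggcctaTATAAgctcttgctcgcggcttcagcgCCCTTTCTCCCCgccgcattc
SNHG29, chr17:16438947-16439006, plus strand: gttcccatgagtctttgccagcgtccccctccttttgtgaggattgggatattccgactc
GAS5, chr1:173869026-173869085, minus strand: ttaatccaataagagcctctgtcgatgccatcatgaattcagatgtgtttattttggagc

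The pyrimidine run was present in 4 of the 8 hosts, against 31.4% of 35116 RefSeq promoter entries and 87.1% of the 62 ribosomal protein genes with an entry. Counted from its first C, it was 12 bases long in SNHG12, 6 in SNHG8 and 5 in SNHG5 and SNHG7. SNHG1 and SNHG3 reached 3 and 4 bases by this count, which leaves out the T before the first C. The same count was used for all sets. SNHG29 and SNHG7 also held runs of 12 and 11 bases that began farther upstream and ended 4 and 3 bases before the RefSeq start. TATAA, searched on the strand of the gene, was present in SNHG5, SNHG7, SNHG8 and SNHG12, which is 4 of 8, against 3.91% of all entries; this motif was chosen after the sequences were seen. Such matches describe letters and are neither sites nor causes. The RefSeq start lay 163 bases from the outermost GENCODE 29 start for GAS5, 165 for SNHG29 and 1259 for SNHG12, and 53 bases or less for the other 5. Where transcription begins in these cells was not measured, so a missing run does not show that a host lacks the TOP feature.

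The libraries held 3747090 to 4865161 counts, and a limit of 3 counts for a gene without reads was 0.617 to 0.801 CPM, which covers counting error only. PROX1 itself had 66 to 105 counts in Control and 33 to 42 in shPROX1, with no overlap. Its level was 18.6 ± 2.50 CPM in Control and 8.91 ± 1.16 CPM in shPROX1, a log2 change of -1.07 ± 0.15 (SE; edgeR quasi-likelihood test, Benjamini-Hochberg adjusted p = 4.89e-06). The remaining level was 47.6% of Control (95% interval 39.0% to 58.2%, from the SE of the fit). The design text gives a reduction of 75%, which would leave a level below this interval. The reduction in these counts was therefore smaller than the stated one. All 7 rhabdomyosarcoma markers (PAX7, MYH3, MYOG, MYOD1, CHRNA1, FGFR4, DES) were expressed. Their summed level was 1565 to 1599.9 CPM in Control and 1224 to 1322 CPM in shPROX1. By edgeR (adjusted p below 0.05) 5 of them fell, where 17.9% of all tested genes did. Markers of epithelial, blood and endothelial cells, 3 of each, stayed at or below 1.65 CPM when summed in any library, with CD3E and CDH5 at 0 counts in all 8. In bulk RNA, fewer cells of a type and less RNA per cell cannot be told apart.

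The 10 hosts spanned a wide range of levels. Scaled by the length of their annotated exons, GAS5 and SNHG29 were highest in Control at 172 ± 12.6 and 160.4 ± 9.36 CPM per kilobase, and their libraries overlapped. SNHG5 followed at 96.1 ± 2.84 CPM per kilobase, apart from its neighbors in the order. SNHG8 at 72.8 ± 8.33, SNHG6 at 68.4 ± 6.08, SNHG3 at 59.0 ± 2.83 and SNHG1 at 58.9 ± 3.54 CPM per kilobase formed a chain in which each overlapped the next. SNHG15 at 25.5 ± 3.02, SNHG12 at 17.0 ± 1.05 and SNHG7 at 12.6 ± 1.34 CPM per kilobase stood apart from each other and closed the order. Values and order depend on the length used. With the longest transcript in place of all annotated exons, GAS5 and SNHG29 were at 368 and 363 CPM per kilobase, SNHG6 passed SNHG8 and SNHG12 passed SNHG15. In shPROX1, SNHG29 moved from rank 2 to rank 3, SNHG1 from rank 7 to rank 4 and SNHG6 from rank 5 to rank 7.

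**Figure D1:**
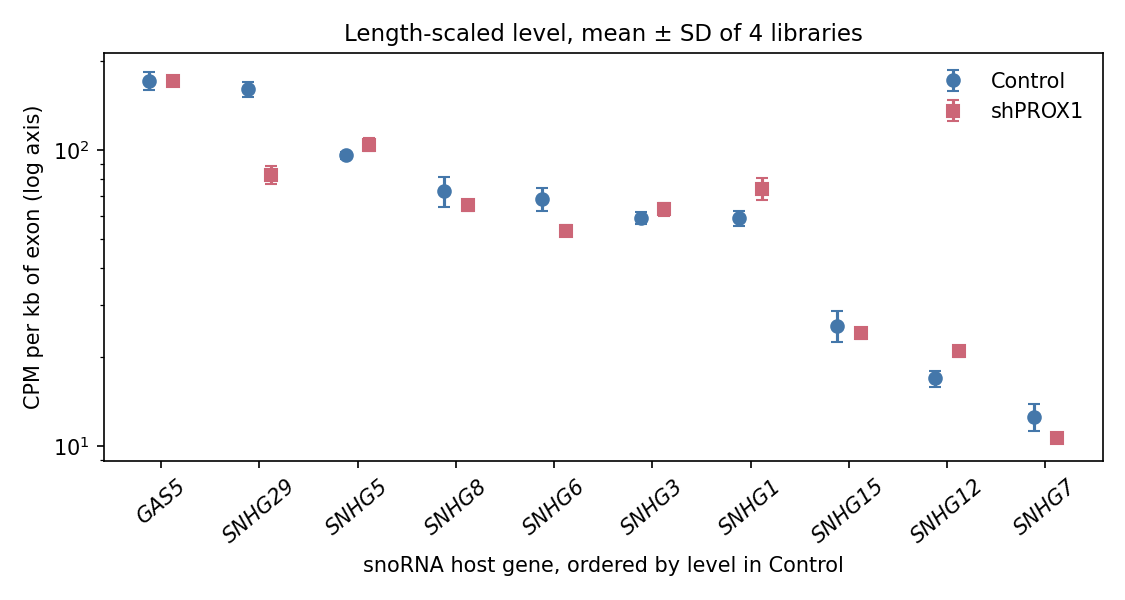
Level of each host gene in CPM per kilobase of annotated exon (vertical log axis), as the mean and SD of 4 Control (circles) and 4 shPROX1 (squares) libraries, ordered by the Control level. SNHG29 lies beside GAS5 in Control and below SNHG5 in shPROX1, at 82.8 CPM per kilobase.

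Among the hosts of box C/D snoRNAs, SNHG29 showed the widest separation of the groups. SNHG29 (ENSG00000175061, named LRRC75A-AS1 in GENCODE 29, chr17:16438822-16478678, plus strand, GRCh38) carries the snoRNAs SNORD49A, SNORD49B and SNORD65. It was at 655, 581, 594 and 582 CPM in Control replicates 1 to 4 and at 324, 310.0, 281 and 330.3 CPM in shPROX1 replicates 1 to 4. Every shPROX1 library was therefore far below every Control library. The mean went from 603 ± 35.2 to 311 ± 21.9 CPM, 51.6% of Control, a log2 difference of -0.95 ± 0.05 (SE of the edgeR fit). Its absolute log2 difference exceeded that of 96.6% of the tested genes. SNHG29 shares 12.02% of its exon bases with LRRC75A on the opposite strand, a gene at 3.96 ± 0.962 CPM in Control and 4.11 ± 1.39 CPM in shPROX1.

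GAS5 (ENSG00000234741, chr1:173863900-173868882, minus strand) was first described as a transcript that accumulates in growth-arrested cells, and its introns are known to carry box C/D snoRNAs, though none was matched inside it here. It was at 677, 586, 647 and 586 CPM in the Control libraries and at 629.7, 641, 596 and 621 CPM in the shPROX1 libraries. The 4 shPROX1 values lay within the span of the Control values. The means were 624 ± 45.6 and 622 ± 19.1 CPM, a log2 difference of -0.01 ± 0.05 (SE), smaller in size than that of all but 1.57% of the tested genes, and its sign changed between processing settings (-0.06 to 0.04). The ratio of GAS5 to SNHG29 counts was 1.03 ± 0.0389 in Control (1.01 to 1.09) and 2.00 ± 0.110 in shPROX1 (1.88 to 2.12). This ratio is taken within a library, so library size does not enter it. The hosts were listed with this contrast known. This ratio and those given below therefore describe the same differences again and are not further support for them.

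SNHG1 (ENSG00000255717, chr11:62851988-62855914, minus strand) holds 7 annotated box C/D snoRNA genes, among them SNORD25 to SNORD28. It was at 226, 208, 237 and 213 CPM in Control and at 299.6, 295, 248 and 274 CPM in shPROX1. All shPROX1 libraries were above all Control libraries, with shPROX1 replicate 3 closest to them. The mean was 221 ± 13.3 CPM in Control and 279 ± 23.6 CPM in shPROX1, a log2 difference of 0.34 ± 0.06 (SE).

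SNHG5 (ENSG00000203875, chr6:85660950-85678748, minus strand) carries SNORD50B. It was at 281, 266, 263 and 267 CPM in Control and at 309, 299.8, 274 and 290.4 CPM in shPROX1. Control replicate 1 lay above shPROX1 replicate 3, so the groups overlapped, and the log2 difference was 0.12 ± 0.05 (SE). Its spread over the Control libraries, 2.95%, was close to the 2.92% that counting alone gives at its mean of 1169.5 counts.

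SNHG6 (ENSG00000245910, chr8:66921684-66926398, minus strand) carries SNORD87. Its Control libraries were at 94.1, 75.5, 86.1 and 85.3 CPM and its shPROX1 libraries at 66.0, 71.0, 64.2 and 65.9 CPM. The groups did not overlap, and Control replicate 2, the lowest of its group, was nearest to shPROX1 replicate 2, the highest of its own. The mean went from 85.2 ± 7.58 to 66.8 ± 2.95 CPM, a log2 difference of -0.35 ± 0.07 (SE). SNHG6 shares 29.3% of its exon bases with MCMDC2 on the opposite strand, which had 0 to 6 counts in a library. SNHG1 and SNHG6 lay on opposite sides of 0, and the ratio of their counts was 2.60 ± 0.180 in Control and 4.17 ± 0.280 in shPROX1.

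The 4 hosts of box H/ACA snoRNAs alone each overlapped between the groups, and 32.4% of all tested genes did not overlap. SNHG12, which carries both classes, is described apart and did not overlap, so nothing is read from the class. SNHG3 (ENSG00000242125, chr1:28505980-28510892, plus strand) carries SNORA73A and SNORA73B, the U17 snoRNAs known for their part in cleavage of the ribosomal RNA precursor. It was at 231, 237, 258 and 239 CPM in Control and at 272, 262, 239 and 259 CPM in shPROX1, a log2 difference of 0.10 ± 0.05 (SE). shPROX1 replicate 3 lay among the Control libraries, and Control replicate 3 lay within the range of the shPROX1 libraries. SNHG3 shares 5.92% of its exon bases with RCC1 on the same strand, whose reads there cannot be told apart, and RCC1 was at 180.2 ± 10.2 CPM in Control and 190.0 ± 4.51 CPM in shPROX1.

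SNHG7 (ENSG00000233016, chr9:136721366-136728184, minus strand) holds SNORA17A and SNORA17B. It was at 56.7, 60.5, 54.7 and 46.7 CPM in Control and at 44.9, 46.2, 48.9 and 45.6 CPM in shPROX1. Control replicate 4 fell inside the range of shPROX1, and the other 3 Control libraries lay above it. The log2 difference was -0.23 ± 0.08 (SE). SNHG7 shares 25.2% of its exon bases with DIPK1B on the opposite strand, and DIPK1B, a protein-coding gene, fell from 29.4 ± 3.65 to 13.2 ± 2.01 CPM (log2 change -1.16 ± 0.13, SE; edgeR quasi-likelihood test, Benjamini-Hochberg adjusted p = 1.87e-07). The strand setting of the counting is not given in the sources used here. Reads of the shared bases therefore cannot be told apart, and the part of DIPK1B in the SNHG7 difference was not tested.

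SNHG8 (ENSG00000269893, chr4:118278709-118279823, plus strand) carries SNORA24. It ranged from 59.9 to 78.0 CPM in Control and from 57.5 to 63.1 CPM in shPROX1, a log2 difference of -0.16 ± 0.08 (SE). SNHG15 (ENSG00000232956, chr7:44983023-44986961, minus strand) carries SNORA9. It ranged from 80.8 to 105 CPM in Control and from 84.9 to 93.4 CPM in shPROX1, a log2 difference of -0.08 ± 0.07 (SE). For both hosts the Control libraries spread more widely than the shPROX1 libraries, with an SD of 7.69 against 2.35 CPM for SNHG8 and of 11.01 against 3.85 CPM for SNHG15. This was not particular to them. The SD was also wider in Control for SNHG6, SNHG7, SNHG12, SNHG29 and GAS5, and wider in shPROX1 for SNHG1, SNHG3 and SNHG5.

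SNHG12 (ENSG00000197989, chr1:28578538-28583132, minus strand) carries snoRNAs of both classes, SNORD99 and SNORA16A, SNORA44 and SNORA61. It was at 75.2, 69.1, 77.1 and 68.0 CPM in Control and at 88.9, 84.7, 88.7 and 94.4 CPM in shPROX1. All shPROX1 libraries exceeded all Control libraries. The mean was 72.4 ± 4.48 CPM in Control and 89.2 ± 3.999 CPM in shPROX1, a log2 difference of 0.30 ± 0.06 (SE). SNHG3 lies 67646 bases away on the opposite strand of chromosome 1, and the ratio of SNHG12 to SNHG3 counts was 0.300 ± 0.0175 in Control and 0.346 ± 0.0245 in shPROX1.

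**Figure D2:**
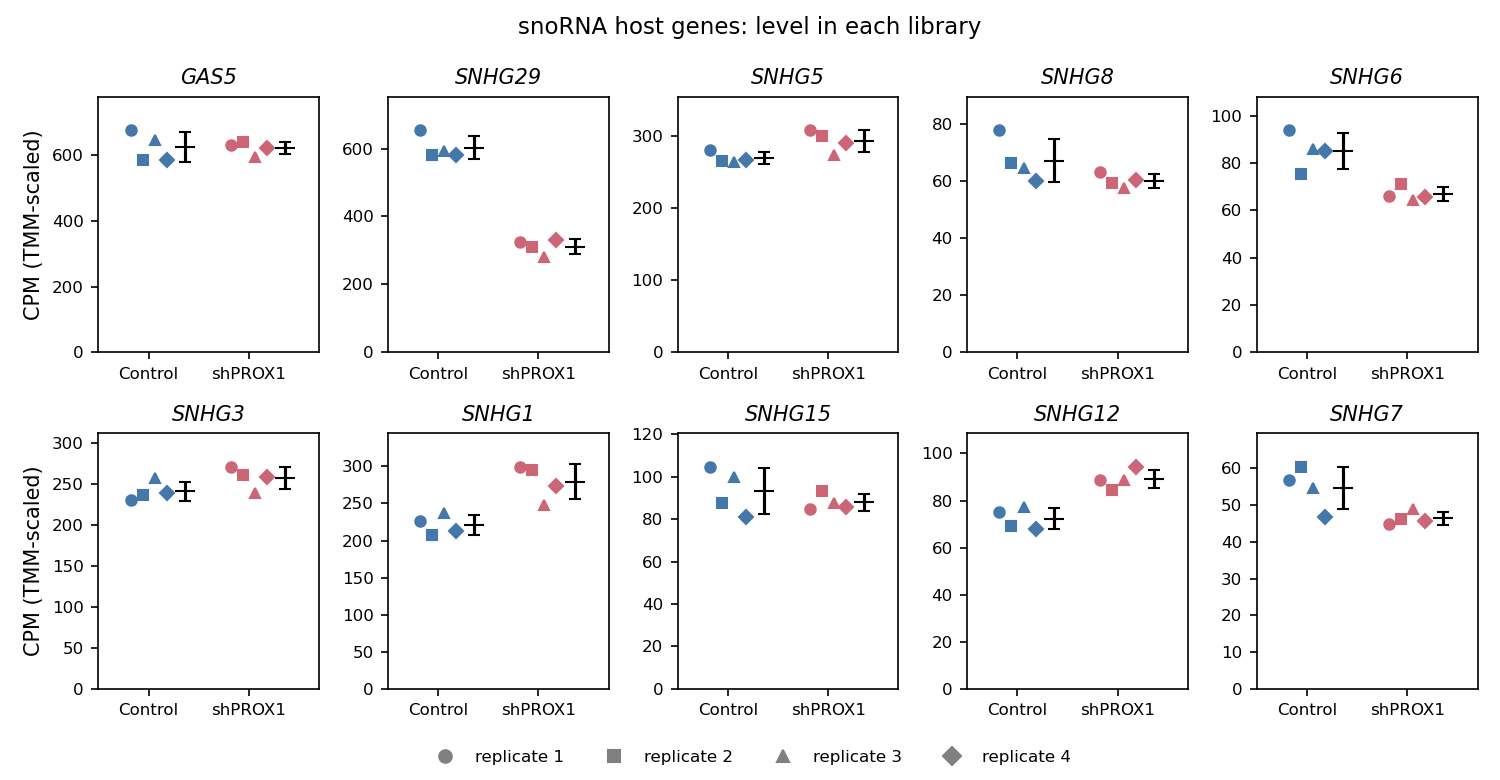
Level of the 10 host genes in each library in CPM (vertical axes from 0, a scale for each gene), with circles, squares, triangles and diamonds for replicates 1 to 4 and the group mean and SD beside them. SNHG29 and SNHG6 are lower and SNHG1 and SNHG12 higher in every shPROX1 library than in any Control library, and GAS5 overlaps.

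The 10 hosts did not share a direction. Their log2 differences were above 0 for 4 and below 0 for 6, with a median of -0.04, beside a median of -0.01 over all tested genes. By the edgeR threshold (Benjamini-Hochberg adjusted p below 0.05), 5 of the 10 were called, where 35.2% of all tested genes were. SNHG1 and SNHG12 were called higher, where 17.3% of tested genes were higher. SNHG29, SNHG6 and SNHG7 were called lower, where 17.9% were lower. SNHG1, SNHG6, SNHG12 and SNHG29 were called under all 17 alternatives run and SNHG7 under 10; it was not called by DESeq2, nor without any 1 of Control replicates 1, 2 or 3 or shPROX1 replicates 1, 2 or 4. SNHG5 was called under 5 alternatives and SNHG8 under 2, so that the count ran from 4, as with DESeq2, to 6, as with limma voom. The groups did not overlap for 4 of the 10 hosts, and for 32.4% of tested genes. The hosts were listed with this contrast known, so nothing is read from these counts. The 5 box C/D hosts had a median of -0.01 and the 4 box H/ACA hosts a median of -0.12, with SNHG12, which carries both classes, in neither set.

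The hosts together took 0.234% ± 0.0112 of all counts in Control and 0.209% ± 0.00793 in shPROX1. Without SNHG29 the shares were 0.173% ± 0.00849 and 0.178% ± 0.00636. Control replicate 1 was above its group mean for 9 of the 10 hosts, and it was the highest Control library for 6 of them. Control replicates 2 and 4 and shPROX1 replicate 3 were each above their group mean for 1 of the 10.

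Coverage of the snoRNAs inside the hosts went with their place in the annotation. Of 25 snoRNA genes matched inside the hosts, 22 lie wholly within annotated host exons, and all 22 had 0 counts in every library. How the counting treated reads that match 2 genes is not given, so these zeros do not show that the snoRNAs were absent. Over all annotated hosts, 12.8% of 179 snoRNA genes overlapping a host exon had any count. The share was 60.6% of 421 inside a host but outside its exons, and 6.12% of 392 in no annotated host. SNORD30, with 34 of its 70 bases in SNHG1 exons, had 0 to 6 counts. The 2 outside the host exons, SNORA73B in SNHG3 and SNORD99 in SNHG12, passed the filter, and their sequences are shown because they are the snoRNAs measured beside their hosts. They are GENCODE 29 transcripts on GRCh38, and capitals mark ACA followed by 3 last bases in the first and CTGA within the last 20 bases in the second. These short motifs are held in those places by 75.2% of 149 annotated SNORA transcripts and 94.4% of 288 annotated SNORD transcripts.
SNORA73B, chr1:28508559-28508762, plus strand: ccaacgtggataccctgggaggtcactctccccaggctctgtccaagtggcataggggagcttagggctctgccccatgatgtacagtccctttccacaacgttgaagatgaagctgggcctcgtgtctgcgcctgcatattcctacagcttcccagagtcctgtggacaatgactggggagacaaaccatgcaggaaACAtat
SNORD99, chr1:28578749-28578822, minus strand: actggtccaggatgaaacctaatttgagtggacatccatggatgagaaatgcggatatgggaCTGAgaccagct

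SNORA73B was at 1939, 814, 1093 and 689 CPM in Control and at 1029.5, 817, 773 and 891 CPM in shPROX1, a log2 change of -0.37 ± 0.19 (SE) that did not pass (edgeR quasi-likelihood test, Benjamini-Hochberg adjusted p = 0.131). Control replicate 1 stood far above the other 7 libraries, and without it the log2 change was 0.02 (adjusted p = 0.879). Without the filter on low counts the adjusted p was 5.0e-15, and without Control replicate 4 it was 0.00942; over all settings it ranged from 5.0e-15 to 0.879. Small structural RNAs took 2.65% of the counts in Control replicate 1 and 1.23% to 2.22% in the other libraries, and their part in this value was not tested. SNORD99 was at 3.88 ± 1.05 CPM in Control and 5.55 ± 0.875 CPM in shPROX1 (log2 change 0.50 ± 0.24, SE; edgeR adjusted p = 0.105), with overlapping groups. Neither snoRNA was called by edgeR, DESeq2 or limma voom, and 1 of them, SNORD99, had an unadjusted edgeR p below 0.05.

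**Figure D3:**
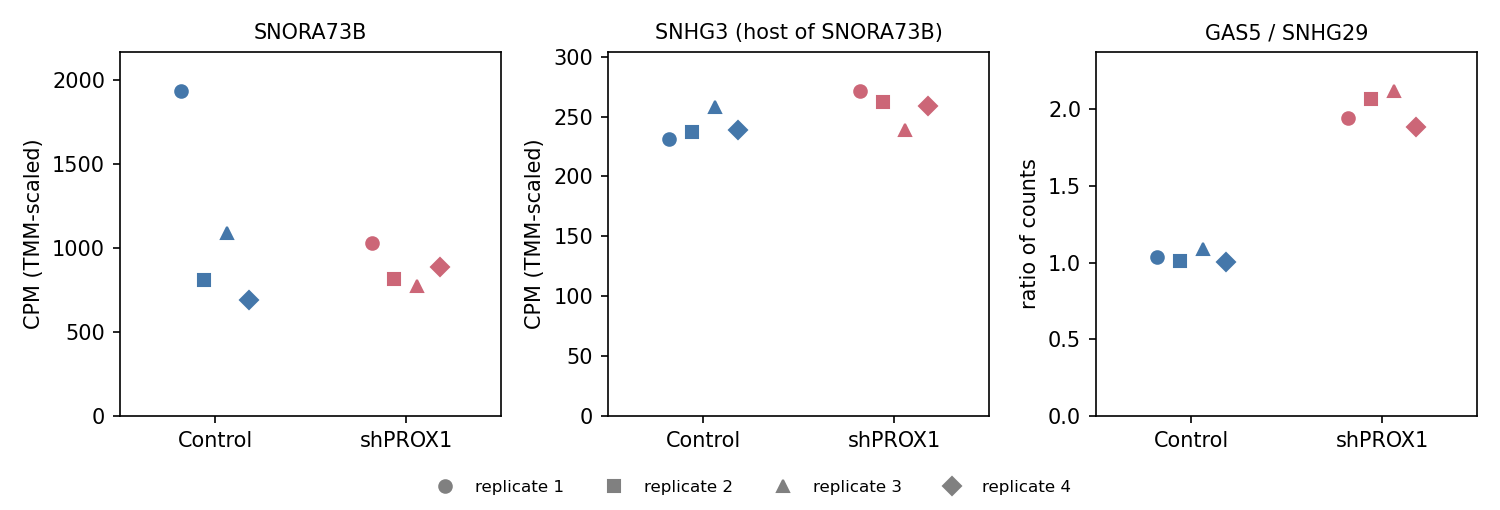
Left and middle, CPM of SNORA73B and of its host SNHG3 in each library; right, the ratio of GAS5 to SNHG29 counts (all axes from 0, symbols for replicates 1 to 4). Control replicate 1 stands above all others for SNORA73B at 1939 CPM but not for SNHG3, and the ratio is 1.01 to 1.09 in Control and 1.88 to 2.12 in shPROX1.

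SNHG1 and GAS5 each have a protein-coding gene starting within 2000 bases of their annotated start on the opposite strand. SLC3A2, the heavy chain of several amino acid transporters, starts 188 bases from SNHG1 in GENCODE 29 and runs away from it. It was at 136, 128, 131 and 143 CPM in Control and at 171, 169, 165 and 174 CPM in shPROX1, without overlap. SLC3A2 rose by 0.33 ± 0.05 on the log2 scale (SE; edgeR quasi-likelihood test, Benjamini-Hochberg adjusted p = 2.39e-05), beside the difference of 0.34 for SNHG1. ZBTB37, a zinc finger gene that starts 800 bases from GAS5, was at 64.5, 74.3, 74.2 and 78.2 CPM in Control and at 62.7, 56.1, 63.1 and 58.3 CPM in shPROX1. It fell by 0.28 on the log2 scale (SE 0.07, edgeR adjusted p = 0.00367), with Control replicate 1 the closest to the shPROX1 libraries, while GAS5 overlapped between the groups.

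The stretch between SNHG1 and SLC3A2 is printed because it lies between 2 genes that were both higher in shPROX1. It is the RefSeq window from 250 bases before the SNHG1 start to 50 bases after it (GRCh38.p14), with capitals for the bases from the start on, and 60.0% of its letters are G or C. The RefSeq start of SLC3A2 lies 224 bases from that of SNHG1, inside the lower-case part.
SNHG1 upstream window, chr11:62855836-62856135, minus strand: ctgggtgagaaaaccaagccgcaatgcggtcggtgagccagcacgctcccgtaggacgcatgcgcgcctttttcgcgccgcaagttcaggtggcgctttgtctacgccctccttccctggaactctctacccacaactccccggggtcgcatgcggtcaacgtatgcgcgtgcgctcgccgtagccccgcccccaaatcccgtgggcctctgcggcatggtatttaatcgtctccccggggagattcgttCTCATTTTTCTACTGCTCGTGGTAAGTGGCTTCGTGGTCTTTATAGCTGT

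Of 21 other non-coding snoRNA hosts listed by symbol, 16 passed the filter on low counts. Of these 1 rose and 1 fell (12.5% called, against 35.2% of all tested genes). SNHG16 rose from 394.5 ± 9.66 to 454 ± 12.5 CPM (log2 change 0.20 ± 0.04, SE; edgeR adjusted p = 8.70e-04), and it shares 30.6% of its exon bases with a gene on the opposite strand. It did not pass when ribosomal protein genes set the library sizes (log2 change 0.15, adjusted p = 0.0688, in a range of 2.93e-05 to 0.0688 over the alternatives). SNHG14 fell from 316 ± 12.6 to 282 ± 3.32 CPM (log2 change -0.16 ± 0.05, SE; edgeR adjusted p = 0.00876). The other 14 did not pass: SNHG4, SNHG10, SNHG11, SNHG17, SNHG19, SNHG20, SNHG25, SNHG26, SNHG30, SNHG32, ZFAS1, DANCR, MEG8 and EPB41L4A-AS1 had log2 changes between -0.25 and 0.17. The median of the 16 was -0.04, the same to 2 decimals as that of the 10 hosts. Their largest absolute value was 0.25, against 0.95 for SNHG29. Another set held genes outside the 10 hosts, not annotated as protein-coding, with an annotated snoRNA inside them. Of its 26 tested genes, which can include some of the 16, 1 rose and 1 fell (7.69% called). Their log2 changes ran from -0.25 to 0.45. Of 212 tested protein-coding hosts of annotated snoRNAs, 52 rose and 26 fell (36.8% called), with a median of 0.04.

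Proteins that bind snoRNAs were counted by class, beside 35.2% of all tested genes that were called and 17.3% that were called higher. All 4 core proteins of box C/D particles rose: FBL, the methyltransferase, by 0.23 ± 0.07 on the log2 scale, NOP58 by 0.22 ± 0.05, SNU13 by 0.21 ± 0.06 and NOP56 by 0.16 ± 0.05 (SE; edgeR adjusted p = 0.0109, 0.00108, 0.00668 and 0.00879). None of the 4 passed when ribosomal protein genes set the library sizes (log2 changes 0.11 to 0.17, adjusted p 0.0594 to 0.107), and FBL missed the threshold without shPROX1 replicate 4 (adjusted p = 0.0505). Of 6 box H/ACA proteins, the core proteins DKC1, NHP2, NOP10 and GAR1 and the assembly factors NAF1 and SHQ1, 0 passed in edgeR, DESeq2 or limma voom, and 0 had an unadjusted edgeR p below 0.05. Their log2 changes ran from -0.02 to 0.04 for the 4 core proteins and were 0.10 for NAF1 and -0.04 for SHQ1, and the difference between the 2 sets of proteins was not tested. Of 10 assembly factors 5 rose and 1 fell (60% called, against 35.2% of all tested genes), with log2 changes of 0.56 ± 0.15 for NUFIP1, a scaffold for box C/D assembly, 0.39 ± 0.07 for ZNHIT6 and -0.33 ± 0.08 for PIH1D1 (SE; edgeR adjusted p = 0.00406, 1.18e-04 and 0.00366).

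Genes of the 2 processes that act on spliced host RNAs were also counted. Of 22 NMD factors 7 rose and 0 fell (31.8% called), with a median log2 change of 0.15. Over all tested genes 17.3% were called higher and 35.2% in either direction, and the list as a whole was not tested. DCP1A, a decapping cofactor, rose by 0.31 ± 0.09, and CASC3 and RNPS1, proteins of exon junctions, by 0.26 ± 0.06 and 0.23 ± 0.07 (SE; edgeR adjusted p = 0.00654, 0.00136 and 0.00874). With ribosomal protein genes as the basis of library size 2 NMD factors rose. Of 8 mRNAs known as NMD targets 3 rose and 0 fell (37.5% called, beside the same 17.3% called higher), and the median was 0.01. GADD45B rose by 1.23 ± 0.16, UPP1 by 1.05 ± 0.11 and GADD45A by 0.65 ± 0.10 (SE; edgeR adjusted p = 2.28e-06, 9.62e-08 and 1.77e-05). Of 10 regulators of TOP mRNAs 0 rose and 3 fell (30% called). Over all tested genes 17.9% were called lower and 35.2% in either direction. The log2 changes were -0.45 ± 0.07 for the RNA-binding protein TIA1, -0.32 ± 0.07 for the translation repressor EIF4EBP2 and -0.17 ± 0.04 for CNBP (SE; edgeR adjusted p = 1.44e-05, 0.00151 and 0.00465).

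Of the mRNAs of ribosomal proteins, the best known TOP RNAs, 17 of 77 rose and 1 fell (23.4% called). Over all tested genes 35.2% were called and 17.3% were called higher. The median log2 change of the 77 was 0.05, and with ribosomal protein genes setting the library sizes 8 rose and 6 fell. RPS26, RPS16 and RPL38 rose by 0.28 ± 0.05, 0.26 ± 0.06 and 0.24 ± 0.06 (SE; edgeR adjusted p = 1.81e-04, 8.03e-04 and 0.00252). The number that rose was 31 without Control replicate 1, and 11 without Control replicate 2, Control replicate 4 or shPROX1 replicate 2. Of 16 other TOP mRNAs 4 rose and 1 fell (31.2% called, beside the same 35.2% of all tested genes). EIF3H, FAU and EEF1D were at 0.25 ± 0.06, 0.21 ± 0.06 and 0.16 ± 0.05 (SE, edgeR adjusted p = 0.00106, 0.00592 and 0.0206). Of the 16, 2 rose without Control replicate 2, Control replicate 4, shPROX1 replicate 1 or shPROX1 replicate 4. The log2 difference of -0.95 for SNHG29 lies outside the range of -0.19 to 0.28 of the 77 ribosomal protein genes. Those of SNHG6, SNHG7, SNHG1 and SNHG12 do too, though SNHG7, SNHG1 and SNHG12 pass it by less than their SE. The hosts were listed with this contrast known, so nothing is read from these positions.

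**Figure D4:**
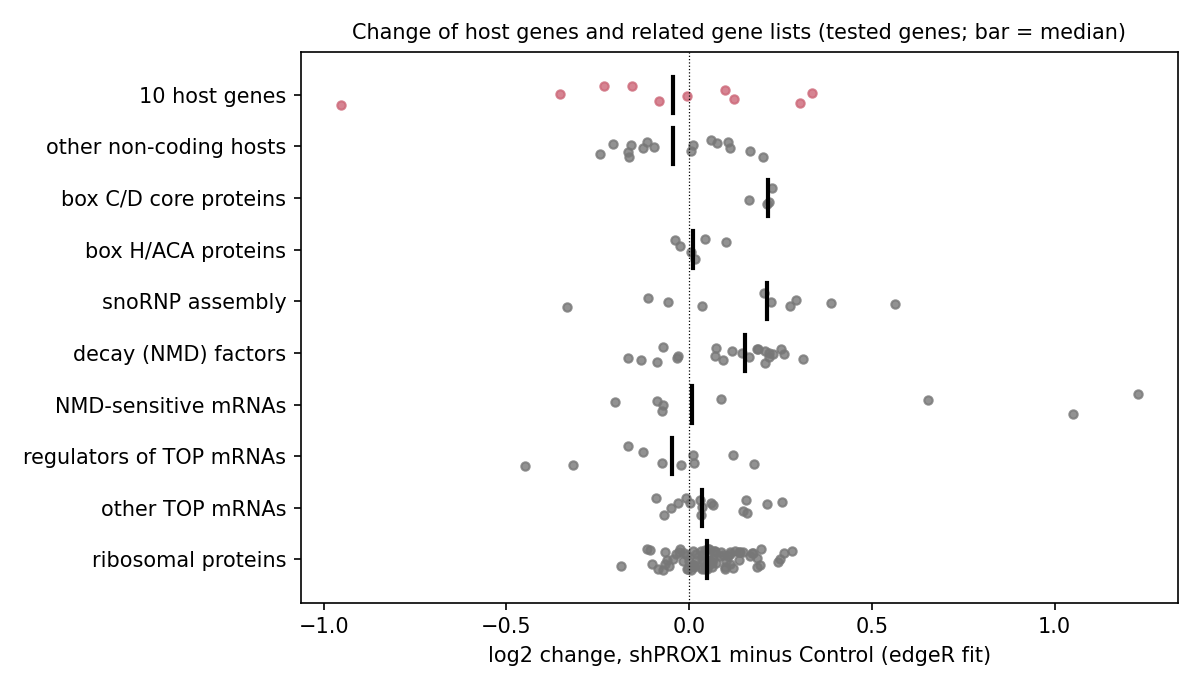
log2 change (shPROX1 minus Control, edgeR fit, horizontal axis) of the 10 host genes and of each related gene list, with 1 point for each tested gene and a bar at the median. The host genes spread from -0.95 to 0.34, the 4 box C/D core proteins lie between 0.16 and 0.23, and the 6 box H/ACA proteins between -0.04 (SHQ1) and 0.10 (NAF1).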

How the data were processed

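Total RNA of RD cells was measured in 8 libraries, made with a directional kit per the labels' protocols, and the labels gave the groups. Each deposited file is 1 library's table of unnormalized counts over 58302 genes, with 0 rows lacking a gene. FastQC, HISAT2, HTSeq and DESeq2 are listed in the submitters' processing notes, as is GRCh38 (hg38). Their versions, the annotation release and the strand setting are not given in the sources used here.

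The members and gene lists were chosen with earlier results of these data known. Identifiers were matched to GENCODE 29 (58039 of 58302), which gave coordinates (1-based) and exon lengths; 56647 had the same coordinates in both. The test was edgeR 4.0.16 (R 4.3.3) with TMM factors, its filter by expression and the quasi-likelihood test (Benjamini-Hochberg adjustment over 12392 genes, threshold 0.05); the fit was tested on simulated data. P-values measure the spread between these libraries, whose biological coefficient of variation was 6.41%. All 12 library pairs within groups were farther apart than counting noise allows, and each library counts as 1 replicate. Chi-square per degree of freedom was 2.39 to 6.34 for Control pairs and 1.19 to 2.16 for shPROX1 pairs. Genes were named by this rule: all 10 hosts, every tested snoRNA inside them, every tested gene that starts within 2000 bases of them, every tested other non-coding host listed by symbol, and up to 3 called genes of each pathway list with the largest absolute log2 change at 1 CPM or more. Genes outside it, such as the other core proteins of the snoRNA particles and the exon-sharing partners, were named after their values were seen. Alternatives were other scaling factors and filters, DESeq2 1.42.0, limma 3.58.1 (voom), a replicate block, leaving out each library, a fit without mitochondrial or small structural RNA genes, and, chosen after seeing the data, library sizes set by ribosomal protein genes. Figures were drawn with matplotlib 3.10.9.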

Additional observations from a re-analysis of the deposited data

Results flagged for a closer look

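SNHG29 in Control replicate 1 was at 655 CPM, while the nearest of the other 3 Control libraries was at 594 CPM, a gap large against the range of the group by Dixon's test. It was 1 of 30 groups of 4 libraries tested, and chance alone marks about 1 in 20. Without Control replicate 1 the log2 difference of SNHG29 was -0.91, beside -0.95 with all 8 libraries.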

How the results depend on the processing

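Over 17 alternatives, 9 of the 10 hosts kept the sign of their log2 difference in all of them, and none moved by more than 1 SD; SNHG29 ranged from -1.01 to -0.90. GAS5 kept its sign in 11 of 17 (-0.06 to 0.04). The summed level of the hosts was 743 CPM per kilobase over all annotated exons and 1484.7 with the longest transcript of each. Of the snoRNAs inside the hosts, 0 were called, and 1 was without the filter on low counts; leaving out each library gave 0 to 1, and the fit without small structural RNA genes holds no snoRNA and gives no value. Called hosts outside the 10, listed non-coding and annotated protein-coding ones together, numbered 80, and 52 with library sizes set by ribosomal protein genes, where 35.1% of all calls were higher in place of 49.2%. Same-numbered libraries did not deviate together (correlations -0.05 to 0.05), so that the numbers pair nothing; a fit with the replicate as a block gave 4187 calls in place of 4364, of which 4131 were shared, and only replicate 3 was most like its own number. With the block, called other hosts numbered 77, genes of the pathway lists 46 and promoter neighbors 2. Counting alone gives an error of 6.52% for SNHG7, at a mean of 235.5 counts in Control, and of 1.92% for GAS5, at 2703 counts, which limits the differences that could be seen at this depth.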
